A study of Mus musculus with 30 samples.

Results

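Natural killer (NK) and cytotoxic cell genes were followed in blood mononuclear cells of mice through the first day after an injection of oleic acid (OA). The set holds 10 genes, chosen by name: Ncr1, Klrb1c, Klrd1, Klrk1, Gzma, Gzmb, Prf1, Nkg7, Xcl1 and Eomes. They are 10 of the 25210 genes or unnamed transcripts that were measured. All probes carrying these names were taken, 13 in all, and all 10 genes passed the filter on dim probes. Where a gene had more than 1 probe, the probe with the highest mean was used.

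Female C57BL/6 mice aged 6 weeks were anaesthetised with xylazine and ketamine. Each received an injected volume of 200 µl in a tail vein, with either OA at a dose of 1.2 µl per g of body weight or physiological serum. Oleic acid is used in this way to produce acute injury of the lung. Blood was taken once per mouse and mononuclear cells were separated on Ficoll of density 1.084 g/ml, so the anaesthetic, the injection and the terminal bleed were common to all groups. OA groups held 3 mice killed after 1 h, 3 after 1.5 h, 3 after 3 h, 2 after 4 h, 3 after 18 h and 3 after 24 h, and serum groups held 3, 3, 2, 1, 2 and 2 mice at the same times, with 1 array per mouse. No mouse without an injection was measured here, so a change with time is not separated from the time of day or from the handling.

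NK cells are lymphocytes of the innate immune system that kill infected or stressed cells without earlier exposure to them. They carry activating and inhibitory receptors, and when activation prevails they release granules that hold perforin and granzymes. Several members are shared with cytotoxic T cells, and in whole mononuclear cells fewer cells of a type and less RNA per cell cannot be told apart.

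All values are log2 levels relative to the 75th percentile of the same array, so a level of 0 equals that percentile and a difference of 1 is a doubling. Levels of different genes come from different probes and are not compared with each other. Between 34.6% and 64.8% of an array's probes gave a signal well above background. The median correlation of an array with the others was 0.813 to 0.964. It was under 0.9 for 3 arrays. They were OA 4 h replicate 2 (0.850) and, among the serum arrays, replicate 1 at 24 h (0.813) and replicate 3 at 1.5 h (0.895). On serum 24 h replicate 1 the intergenic probes, which lie outside annotated genes, stood at -3.48 log2 units relative to the always detected probes, against a median of -5.46 over all arrays.

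Ncr1 and Xcl1 varied most over the 12 groups relative to their spread, with group means lowest at 3 or 4 h and highest at 18 or 24 h. Across all 10 genes, no difference between OA and serum mice passed the test at 1, 1.5, 3, 4 or 18 h, and 1 gene passed it at 24 h. The test was limma's moderated test in a fit of all 12 groups, with Benjamini-Hochberg adjustment over all genes and a threshold of 0.05. The background was 0% of genes called at each of the 5 earlier times and 31.5% at 24 h, so the 1 member called is read against that share. At an unadjusted p under 0.05 none of the 10 differed at the 5 earlier times, beside 5.11% of all genes at 1 h and 10.1% at 1.5 h, then 7.76% (3 h), 10.4% (4 h) and 1% (18 h). Averaged over the 6 times, the difference between OA and serum mice ranged from -0.26 (Prf1) to 0.30 (Klrk1), and none of the 10 passed, beside 0.00397% of all genes called. None had an unadjusted p under 0.05 either, beside 14.7% of all genes. The 95% intervals of these averages bound the effect. For Nkg7 the average was 0.0049 (interval -0.35 to 0.36), for Ncr1 0.04 (-0.34 to 0.41) and for Gzma 0.16 (-0.38 to 0.70).

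**Figure D1:**
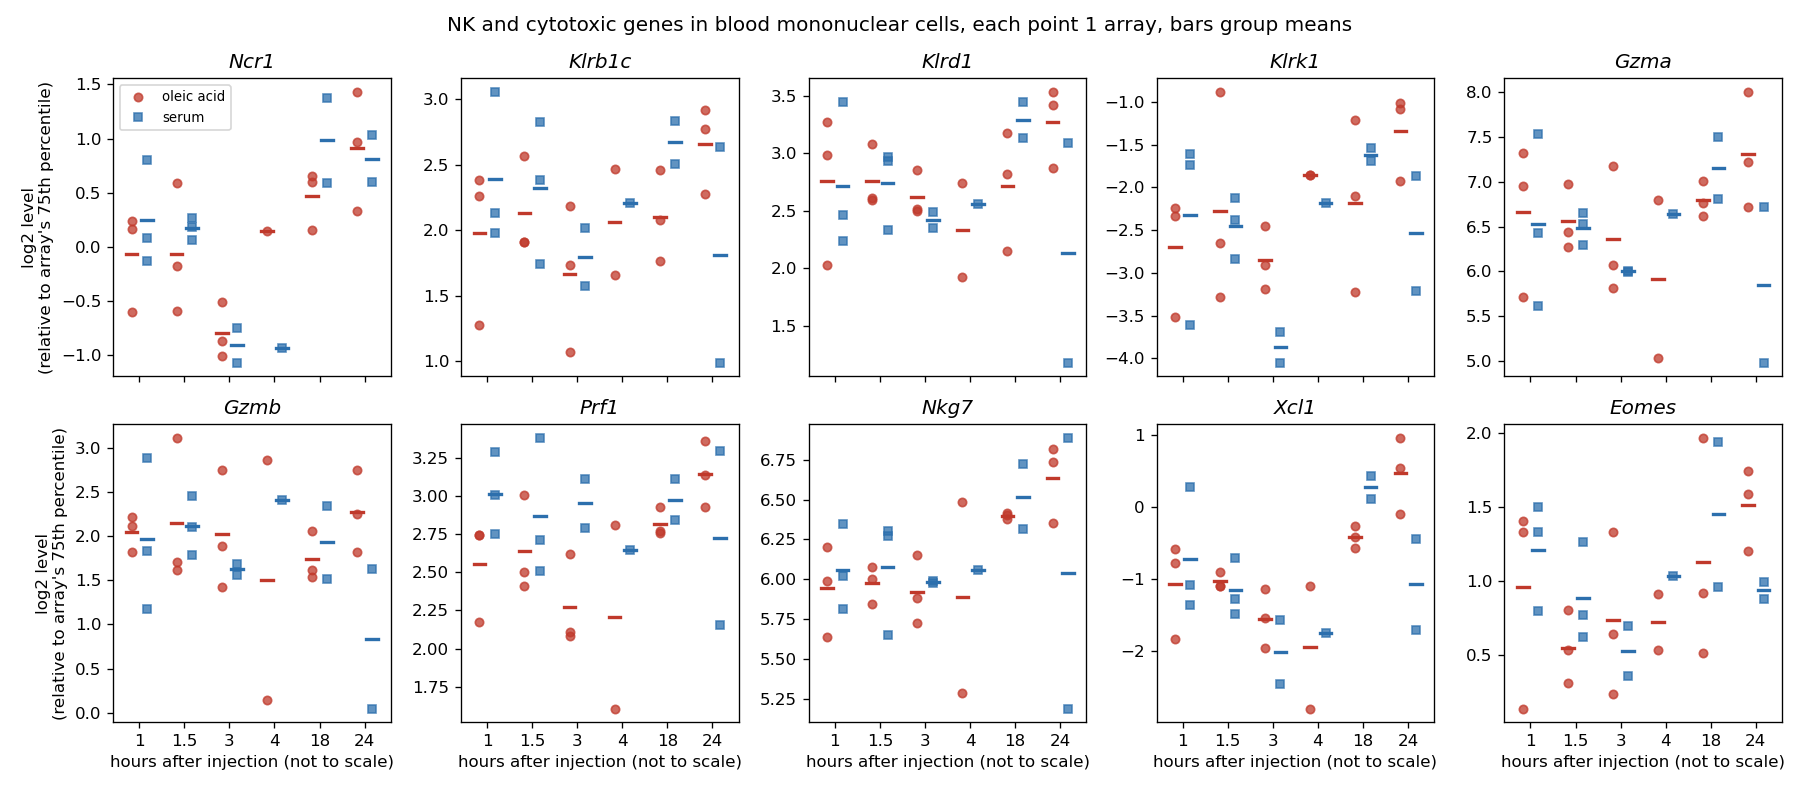
Log2 level of each of the 10 genes relative to the array's 75th percentile, by hours after injection, with OA mice (circles) left of serum mice (squares), 1 point per array and a bar at each group mean. Xcl1 and Ncr1 have their lowest group means at 3 or 4 h and their highest at 18 or 24 h, and serum 24 h replicate 1 is the lowest of all 30 arrays for Klrb1c, Klrd1, Gzma, Gzmb and Nkg7.

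The probe of Xcl1 carries the only called difference. It lies at chr1:166862020-166862079 on the minus strand of mm9, the build of the array's annotation. The probe of Ncr1 (chr7:4296176-4296235, plus strand) carries the other time course described in full. The first 30 bases of each are shown in lower case, with no part marked.
Xcl1: tcaccaaacgaggactaaaaatttgtgctg
Ncr1: atcatgaagaggccaacagattaacaaatt

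Klrb1c, Klrd1 and Klrk1 are neighbours in the NK gene complex on mouse chromosome 6, and their probes lie between 128729611 and 129561923 of mm9. The probe of Klrk1 (chr6:129561864-129561923, minus strand) was well above background on 16 of the 30 arrays and that of Xcl1 on 25. The other 8 genes were above background on all 30 arrays, where they could be read. Ncr1 was not read on OA 4 h replicate 2, where its spot was marked as an outlier, so Ncr1 rests on 29 arrays.

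Eomes has a pair of probes that differ in brightness, and the first 30 bases of each are shown because they disagree most. Their levels correlated at r = 0.35 over the 30 arrays, against r = 0.56 for the pair of Klrb1c probes and r = 0.93 for the pair of Nkg7 probes. The first Eomes probe (chr9:118394425-118394484, plus strand) was above background on all 30 arrays and is used below. The second (chr9:118395189-118395248, plus strand) was above background on 18.
Eomes, used: gctatgaagaacgagtgcccggtgctatta
Eomes, second: tcataagtcatttttaataaatgtggttca

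Xcl1 encodes lymphotactin, a chemokine that activated NK and CD8 T cells release and that attracts cross-presenting dendritic cells. At 1 h its level was -1.82, -0.59 and -0.77 in OA mice, against -1.35, -1.08 and 0.28 in serum mice. At 1.5 h it was -1.10, -0.90 and -1.09 in OA mice, against -0.71, -1.48 and -1.28 in serum mice. The treatments overlapped at both of these times. At 3 h it was -1.96, -1.53 and -1.14 in OA mice, against -2.45 and -1.57 in serum mice, and neither serum array was well above background. At 4 h it was -2.79 and -1.10 in OA mice, against -1.74 in the single serum mouse. These were the lowest group means of Xcl1 in the series, in both treatments. At 18 h it was -0.26, -0.41 and -0.56 in OA mice, against 0.11 and 0.43 in serum mice. At 24 h it was -0.10, 0.54 and 0.96 in OA mice, against -1.71 and -0.44 in serum mice. OA mice were thus all below serum mice at 18 h and all above them at 24 h.

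The difference of Xcl1 at 24 h was 1.54 (SE 0.54, 95% interval 0.42 to 2.66), or 2.91-fold, with an adjusted p = 0.0376 by limma. At 18 h it was -0.68 (SE 0.54) with an adjusted p = 1.00 by limma, so that difference did not pass. At 3 h, where Xcl1 was below background on both serum arrays, the OA mean was at least 1.37-fold the serum mean. The treatments overlapped there (95% interval of the difference -0.65 to 1.58), and the adjusted p = 0.827 by limma did not pass. The call at 24 h rests on 2 serum and 3 OA arrays. It was lost when any 1 of these OA arrays was left out (adjusted p = 0.0607, 0.0782 and 0.104 by limma). In a fit of only the groups compared it was lost too (adjusted p = 0.133 by limma). Without serum 24 h replicate 1, on which Xcl1 was not well above background, the difference was 0.90 with an adjusted p = 0.649. No slide held both treatments at 24 h, and with slide as a block the difference was 1.45 and did not pass (adjusted p = 0.210 by limma), while 7 genes were called in all, against 7929 without the block.

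The group means of Xcl1 ran, from low to high, from -2.01 ± 0.62 in serum mice at 3 h (SD, n = 2) and -1.94 ± 1.2 in OA mice at 4 h (n = 2) to 0.27 ± 0.23 in serum mice at 18 h (n = 2) and 0.47 ± 0.53 in OA mice at 24 h (n = 3). Neighbours in this order differed by less than their SDs at both ends. The 5 groups from serum at 1.5 h (-1.16 ± 0.40, n = 3) through serum at 1 h (-0.72 ± 0.87, n = 3), which include serum at 24 h (-1.07 ± 0.90, n = 2) and OA at 1 h and 1.5 h (-1.06 ± 0.67 and -1.03 ± 0.11, n = 3 each), overlapped as well. OA at 18 h (-0.41 ± 0.15, n = 3) lay above OA at 1.5 h with no shared array value, and below serum at 18 h likewise.

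Ncr1 encodes NKp46, an activating receptor that in mice is found on NK cells and some other innate lymphocytes. At 1 h its level was -0.60, 0.16 and 0.24 in OA mice, against -0.13, 0.08 and 0.80 in serum mice. At 1.5 h it was -0.18, 0.59 and -0.60 in OA mice, against 0.18, 0.27 and 0.07 in serum mice. The treatments overlapped at both times. At 3 h it was -0.51, -0.87 and -1.01 in OA mice, against -1.07 and -0.75 in serum mice, and at 4 h it was 0.14 in the single OA mouse read, against -0.93 in the single serum mouse. All 5 arrays at 3 h were below 0. At 18 h it was 0.60, 0.66 and 0.15 in OA mice, against 1.38 and 0.59 in serum mice. At 24 h it was 0.33, 1.43 and 0.97 in OA mice, against 0.60 and 1.03 in serum mice. All 10 arrays of the next day were above 0, and the treatments overlapped at both times.

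In Ncr1 the group means ran from -0.93 (serum at 4 h, 1 array), -0.91 ± 0.23 (serum at 3 h, SD, n = 2) and -0.80 ± 0.26 (OA at 3 h, n = 3) to 0.81 ± 0.31 (serum at 24 h, n = 2), 0.91 ± 0.55 (OA at 24 h, n = 3) and 0.98 ± 0.56 (serum at 18 h, n = 2). Within each of these 2 sets of 3 groups the means differed by less than the SDs. The other 6 groups had means of -0.07 to 0.47, and neighbours among them also differed by less than their SDs, apart from the single OA array at 4 h, which has no SD.

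A test of any difference among the 12 groups gave adjusted p = 0.0710 for Ncr1 and 0.0795 for Xcl1 by limma's F test, so neither passed, beside 0.325% of all genes called. Their unadjusted values were 0.00105 and 0.00201, and 23.9% of all genes were under 0.05 without adjustment. The 8 other members had adjusted values of 0.301 to 0.780. With a trended, robust estimate of the variance both were called, and the share of all genes called in that fit is not given here.

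Between the first hours and 3 to 4 h, taken over both treatments, all 10 genes had a difference below 0, with a median of -0.26 beside 0.05 over all genes tested. For Ncr1 it was -0.70 (SE 0.23, unadjusted p = 0.00640, adjusted p = 0.186 by limma) and for Xcl1 -0.82 (SE 0.28, unadjusted p = 0.00836, adjusted p = 0.202 by limma). The remaining 8 lay between -0.33 (Gzma) and -0.05 (Nkg7). No member passed the test, and 0.238% of all genes did, while 12% of all genes had an unadjusted p under 0.05 and 2 of the 10 members did. Both genes were below 0 under each of the alternatives run, between -0.76 and -0.18 for Ncr1 and between -1.05 and -0.26 for Xcl1. Without OA 4 h replicate 2 the median was -0.14 and 8 of the 10 genes were below 0. Markers of other cell types were off 0 over the same interval too. The B cell markers were below 0 in 8 of 8 genes (median -0.65, 1 called), the dendritic markers in 5 of 5 (-0.34, 1 called) and the neutrophil markers in 7 of 8 (-0.56, none called). The platelet markers were above 0 in 7 of 7 (1.07) and the T cell markers in 8 of 10 (0.28), with none called. Their part in the difference of the 10 genes was not tested.

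Between the first hours and the next day, 9 of the 10 genes had a difference above 0 in OA mice and 5 of 10 in serum mice. In OA mice the median was 0.50 beside -0.03 over all genes, and in serum mice 0.07 beside -0.04. The lower count in serum mice rests on serum 24 h replicate 1: without it 9 of 10 genes were above 0 in serum mice, with a median of 0.44 beside 0.05 over all genes. Neither comparison called a member, and the background was 0.0119% of genes in OA mice and 0.0198% in serum mice. At an unadjusted p under 0.05 there were 3 members in OA mice (Xcl1, Ncr1 and Nkg7), beside 4.09% of all genes, and 1 in serum mice (Ncr1), beside 6.33%. In OA mice the levels of Xcl1 at 18 and 24 h ran from -0.56 to 0.96 (median -0.18), against -1.82 to -0.59 (median -0.996) at 1 and 1.5 h, and the times did not overlap. Its difference was 1.07 (SE 0.34, unadjusted p = 0.00466, adjusted p = 0.883 by limma). Nkg7, which encodes a membrane protein of cytotoxic granules, ran from 6.35 to 6.82 (median 6.41) on the next day, against 5.64 to 6.20 (median 6.00) in the first hours. It did not overlap either, and its difference was 0.56 (SE 0.26, unadjusted p = 0.0412, adjusted p = 1.00 by limma). These were the 2 members whose times did not overlap, beside 0.254% of all genes that were higher without overlap.

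Markers of other cell types were off 0 over this interval as well, with none of those given here called. The T cell markers were above 0 in 10 of 10 genes in OA mice (median 0.23) and in 5 of 10 in serum mice (0.02). The neutrophil markers were below 0 in 7 of 8 in OA mice (-0.80) and in 8 of 8 in serum mice (-1.25). The platelet markers were above 0 in 1 of 7 in OA mice (-0.20) and in 7 of 7 in serum mice (1.06). Their part in the differences of the 10 genes was not tested.

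Ncr1 was the member with the smallest p in serum mice over the same interval. It ran from 0.59 to 1.38 (median 0.81) at 18 and 24 h in serum mice, against -0.13 to 0.80 (median 0.13) at 1 and 1.5 h. The difference was 0.76 in OA mice (SE 0.26, unadjusted p = 0.00860, adjusted p = 0.921 by limma) and 0.69 in serum mice (SE 0.29, unadjusted p = 0.0282, adjusted p = 0.673 by limma). The next-day change of Ncr1 differed between the treatments by 0.07 (95% interval -0.74 to 0.88), and that of Xcl1 by 0.54 (-0.52 to 1.60). No member passed the test of that difference, and the background was 0%. None had an unadjusted p under 0.05, beside 2.68% of all genes. All 10 of these differences between the treatments were above 0, with a median of 0.43 beside 0.05 over all genes. Without serum 24 h replicate 1, 7 of 10 were above 0 with a median of 0.056 beside -0.097 over all genes, and the difference was 0.22 for Xcl1 and -0.041 for Ncr1.

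**Figure D2:**
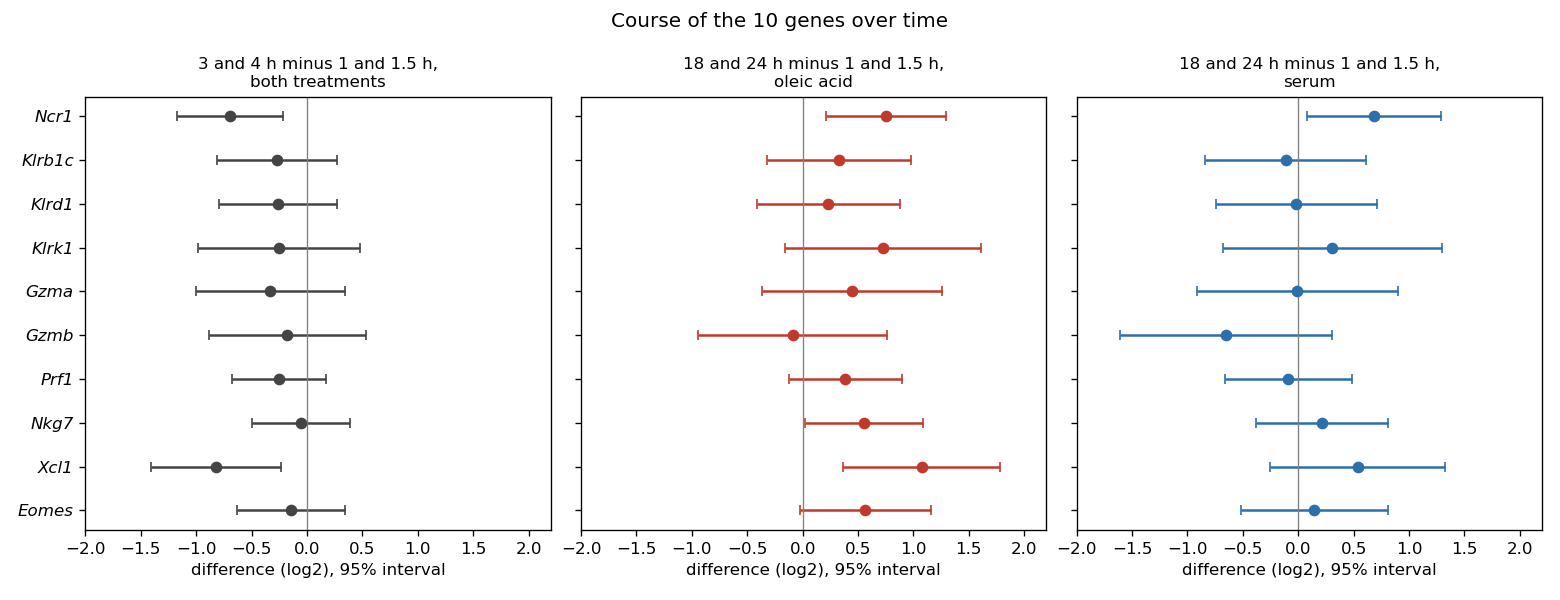
Differences over time in the 10 genes, in log2 with 95% intervals: 3 and 4 h minus 1 and 1.5 h over both treatments (left), and 18 and 24 h minus 1 and 1.5 h in OA mice (middle) and in serum mice (right). All 10 points lie below 0 on the left, and in the middle 9 of 10 lie above 0 with Xcl1 at 1.07 and Ncr1 at 0.76.

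Arrays were made on 5 slides, and 1 slide, scanned on a second day, held 5 OA arrays only. Within slides, Xcl1 was lower at 3 and 4 h than in the first hours on 4 of 4 slides of OA mice (-1.70 to -0.07) and on 3 of 3 slides of serum mice (-1.74 to -0.46). Ncr1 was lower on 3 of 4 slides of OA mice (-1.22 to 0.74) and on 3 of 3 of serum mice (-1.25 to -1.09). For the next day, Xcl1 was higher on 3 of 3 slides of OA mice (0.50 to 1.44) and Ncr1 on 3 of 3 slides of OA mice (0.26 to 0.84) and of serum mice (0.41 to 1.2). In serum mice Xcl1 was higher on 2 of 3 slides (-0.54 to 1.39). The lowest value is from the slide that carries both 24 h serum arrays.

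At the times other than 24 h the median of the 10 genes, OA minus serum within a slide, was -0.88 on the slide that held both treatments at 1 h and 0.31 and 0.07 on those at 1.5 h. On the later slides it was 0.06 (3 h), -0.64 (4 h) and -0.20 (18 h). Each rests on 1 OA array, against 1 or 2 serum arrays.

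At 24 h all 10 genes had a difference above 0, with a median of 0.99 beside 0.05 over all genes. Over genes well above background on 10 or more arrays, as all 10 members were, the all-gene median was 0.51. Of the 10 members, 4 had an unadjusted p under 0.05, beside 47.1% of all genes. Besides Xcl1 these were Klrd1, Gzma and Gzmb. Klrd1, which encodes CD94, the partner of the NKG2 receptors, stood at 2.87, 3.53 and 3.42 in OA mice, against 1.18 and 3.09 in serum mice. Gzma, the trypsin-like granzyme, stood at 6.72, 8.01 and 7.22 in OA mice, against 4.98 and 6.72 in serum mice. Gzmb, the granzyme that cleaves caspases, stood at 1.82, 2.75 and 2.25 in OA mice, against 0.05 and 1.63 in serum mice. In all 3 genes serum replicate 1 was the low array, and serum replicate 2 lay within the OA range for Klrd1, at its lower edge for Gzma and below it for Gzmb.

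The differences were 1.14 (SE 0.49) for Klrd1, 1.47 (SE 0.62) for Gzma and 1.44 (SE 0.65) for Gzmb, with adjusted p = 0.0751, 0.0705 and 0.0883 by limma, so none passed. Gzmb, Xcl1 and Eomes had no overlap between the treatments, each higher in OA mice, beside 27.5% of all genes that were higher without overlap. Eomes, a T-box transcription factor needed for NK cell maturation, stood at 1.74, 1.58 and 1.2 in OA mice, against 0.88 and 0.99 in serum mice, a difference of 0.57 (SE 0.45, adjusted p = 0.318 by limma). Klrk1, which encodes the activating receptor NKG2D, was not well above background on either serum array at 24 h and was above it on all 3 OA arrays. It was at least 1.09-fold higher in OA mice, and its adjusted p = 0.161 by limma did not pass. The second probes of Nkg7, Klrb1c and Eomes also had differences above 0, of 1.0, 0.65 and 0.66, and none passed (lowest adjusted p over all probes 0.0988 by limma, for Nkg7).

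Serum 24 h replicate 1 is the array with the lowest correlation in the series. Markers of several other cell types moved with it, while its neutrophil mean (4.21) lay within that of OA mice at 24 h (3.84 to 5.59). The mean of the 10 T cell markers was 4.58 to 4.73 in OA mice at 24 h, against 3.35 on serum replicate 1 and 4.63 on serum replicate 2. The mean of the 8 B cell markers was 4.30 to 4.51 in OA mice, against 2.52 and 4.01 in serum mice, and that of the 7 monocyte markers was 3.53 to 4.03, against 0.94 and 2.66. The lists were 9 of 10, 8 of 8 and 7 of 7 above 0 at 24 h, with medians of 0.73, 1.11 and 2.14, and 0, 3 and 5 of their genes were called. Without serum 24 h replicate 1 the medians of the T cell, B cell and monocyte markers were -0.04, 0.31 and 1.41. Of these markers none was below background on every array of a group at 24 h. The erythroid markers were instead highest on serum 24 h replicate 1, with a mean of 4.19 to 5.76 in OA mice, against 6.93 on serum replicate 1 and 4.78 on serum replicate 2.

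Without serum 24 h replicate 1 the median of the 10 genes was 0.35, no member was called, and 39 of all genes were called (0.155%). Klrd1 was then 0.19, Gzma 0.60 and Gzmb 0.65. Ncr1, Prf1 and Nkg7 turned to -0.12, -0.16 and -0.25. Without the other serum array the median was 1.77. Both fits keep 1 serum array at 24 h, whose spread is taken from the remaining groups. What set serum 24 h replicate 1 apart was not tested.

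**Figure D3:**
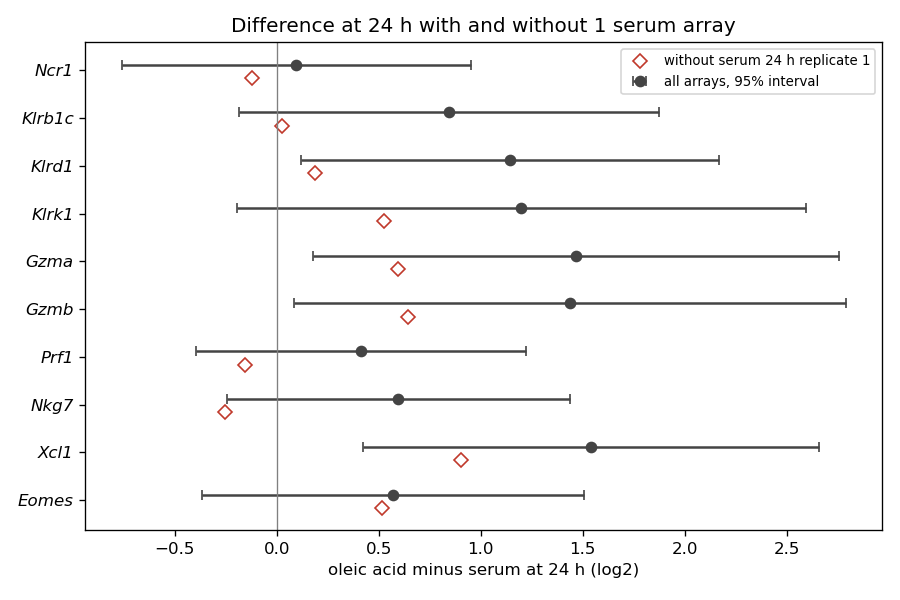
OA minus serum at 24 h for each of the 10 genes, in log2, from all arrays with 95% intervals (filled points) and without serum 24 h replicate 1 (open diamonds). Each of the 10 diamonds lies left of its point, and those of Ncr1, Prf1 and Nkg7 lie below 0.

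**Figure D4:**
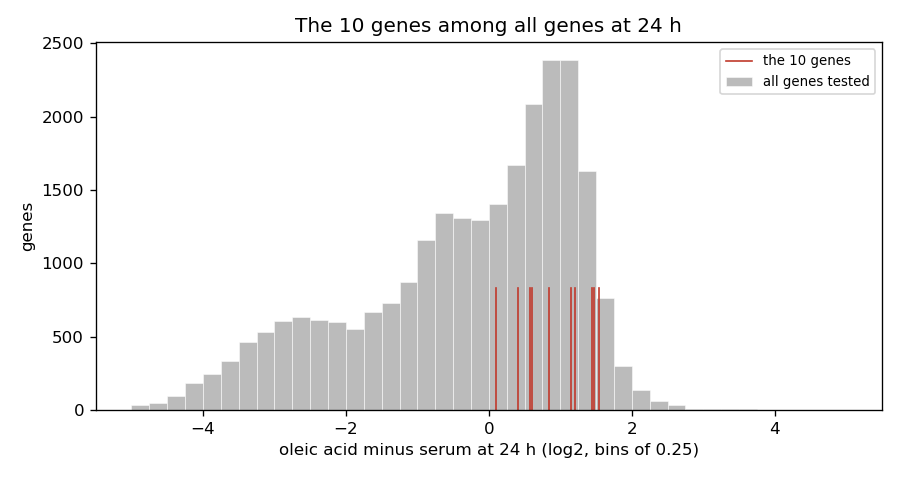
Number of genes by their difference at 24 h, OA minus serum in log2 with bins of 0.25, over all 25210 genes tested (grey bars), and the 10 genes as red lines. The lines lie between 0.10 and 1.54, within the broad right-hand part of the distribution of all genes, and values beyond the axis are counted in the end bins.

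At 18 h, where neither serum array was apart from the others, all 10 differences were below 0, from -0.68 (Xcl1) to -0.12 (Nkg7), with a median of -0.43 beside -0.06 over all genes. None passed. Klrb1c and Xcl1 did not overlap, lower in OA mice, beside 4.24% of all genes. Klrb1c, the NK1.1 antigen used to identify NK cells in this strain, stood at 2.46, 2.08 and 1.77 in OA mice, against 2.83 and 2.51 in serum mice. Its difference was -0.57 (95% interval -1.60 to 0.46). The T cell markers were also below 0 in 9 of 10 genes (median -0.27), and the neutrophil markers were above 0 in 7 of 8 (median 0.94), with none called.

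Prf1, which encodes perforin, the protein that opens pores for the granzymes, had the smallest p of the 10 at 1 h, at 3 h and over the 6 times. At 1 h it was 2.17, 2.74 and 2.75 in OA mice, against 2.75, 3.01 and 3.29 in serum mice. At 1.5 h it was 2.41, 3.01 and 2.50 in OA mice, against 3.38, 2.71 and 2.51 in serum mice. At 3 h it was 2.08, 2.11 and 2.62 in OA mice, against 2.79 and 3.11 in serum mice. The treatments did not overlap at 1 h and 3 h, where OA mice were lower, beside 8.22% and 12.9% of all genes lower without overlap. At 1 h they nearly touched, with a highest OA value of 2.747 and a lowest serum value of 2.748. At 4 h Prf1 was 2.81 and 1.61 in OA mice, against 2.64 in serum. At 18 h it was 2.93, 2.76 and 2.77 in OA mice, against 3.11 and 2.84 in serum mice. At 24 h it was 2.93, 3.36 and 3.14 in OA mice, against 2.16 and 3.30 in serum mice.

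Over the 6 times Prf1 differed by -0.26 (95% interval -0.60 to 0.08, adjusted p = 0.412 by limma). It was below 0 under all 41 alternatives, between -0.46 and -0.09, and never called. At 3 h the difference was -0.68 (SE 0.39, adjusted p = 0.670 by limma) and at 1 h -0.46 (SE 0.35, adjusted p = 0.825 by limma).

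At 1 h, 7 of the 10 genes were below 0 (median -0.28), at 1.5 h 5 were, at 3 h 3 were and at 4 h 8 were. At 3 h Klrd1 and Klrk1 did not overlap, higher in OA mice, beside 17.7% of all genes. For Klrd1 the lowest OA value was 2.50 and the highest serum value 2.49. Klrk1 was below background on both serum arrays at that time and well above it on only 1 of the 3 OA arrays. Its lower bound gave no fold. At 4 h Ncr1 and Klrk1 were higher and Eomes lower without overlap, beside 31.9% and 40.7% of all genes, with a single serum array. Without OA 4 h replicate 2 the median at 4 h was 0.22, against -0.22 with it, and without serum 1.5 h replicate 3 the median at 1.5 h was -0.24, against -0.04 with it. Eomes had the smallest p at 1.5 h, where it stood at 0.54, 0.80 and 0.31 in OA mice, against 1.26, 0.77 and 0.63 in serum mice, and did not pass (adjusted p = 0.684 by limma).

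The 10 genes varied together from array to array, given here as a description with no test, since all share the arrays and their scaling. The level of each gene correlated with the mean of the other 9 at r = 0.58 (Gzmb) to 0.90 (Klrb1c and Gzma), Ncr1 over 29 arrays and the others over 30. The range of a gene over all arrays was 1.70 log2 units (Nkg7) to 3.75 (Xcl1). Among 8371 other genes, the 10 whose levels were most like the mean of the members were Klrc1 (r = 0.95), Klra23 (0.94), Klra7 (0.94), Klra8 (0.93), Klra16 (0.92), Klrb1a (0.92), Klra4 (0.91), Klra1 (0.91), Klra9 (0.88) and Klri2 (0.88). The median r over all genes compared was 0.39 and the 99th percentile 0.76. All 10 are lectin-like receptors of the NK gene complex by name, and the Klra genes (the Ly49 receptors) are near-identical copies whose probes may share transcripts, so these are not 10 separate measurements.

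Of 77 genes in 5 wider lists of the same biology, 71 were measured. Calls were made at 24 h only. The NK receptors were higher in 3 of 24 genes: Cd244a, a receptor of the SLAM family (1.60), Slamf7 (1.43) and Il18r1, a subunit of the interleukin-18 receptor (1.31). The adaptors and signalling genes were higher in 5 of 12, Sh2d1a (1.77), Plcg2 (1.52), Syk (1.30), Txk (1.22) and Vav1 (0.96), and lower in 1, Sh2d1b2 (-2.81), which was above background on 6 arrays. Plcg2 and Syk are also expressed in B cells and myeloid cells.

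The granule and killing genes were higher in 1 of 16, Ctsc (1.97), the protease that activates granzymes. The chemokine and homing genes were higher in 3 of 9: Cx3cr1 (3.27), which monocytes also carry, S1pr5 (1.56), the receptor that NK cells use to leave tissues, and Cxcr6 (1.12). The transcription factors were higher in 3 of 10: Nfil3 (2.30), Id2 (1.40) and Tbx21 (1.40), which encodes T-bet. These shares stand beside the 15.6% of all genes called higher at 24 h and the 15.9% called lower. Without serum 24 h replicate 1 none of the 71 genes was called. The 15 genes called higher were then all still above 0, with a median of 0.78 against 1.43 from all arrays, and 8 of them lost the larger part of their difference. They ran from Vav1 (0.21), Id2 (0.32) and Il18r1 (0.47) to Nfil3 (1.40), S1pr5 (1.89) and Cx3cr1 (2.37). The 15 were picked by a fit that shares the arrays left, so their signs are no separate support. Over the whole lists without that array, 15 of 24 NK receptors, 9 of 12 adaptor and signalling genes and 10 of 16 granule genes were above 0. So were 9 of 9 chemokine and homing genes and 7 of 10 transcription factors.

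The promoters of Xcl1 and Ncr1 are printed from RefSeq (GRCm38.p6, 250 bases before the start to 50 after it) as the members with the smallest p-values in the F test. Capitals mark the core GGTGTG, or CACACC on the other strand, of the sites that T-box factors such as Eomes bind. The Xcl1 window (chr1:164935473-164935772, minus strand) holds 2 matches and the Ncr1 window (chr7:4337465-4337764, plus strand) none. Of the 9 members with a promoter in the table, 2 held the core, Xcl1 and Nkg7, beside 18.96% of 27025 promoters of the same length. A match describes letters only. Klrd1 is not in the table.
Xcl1 promoter: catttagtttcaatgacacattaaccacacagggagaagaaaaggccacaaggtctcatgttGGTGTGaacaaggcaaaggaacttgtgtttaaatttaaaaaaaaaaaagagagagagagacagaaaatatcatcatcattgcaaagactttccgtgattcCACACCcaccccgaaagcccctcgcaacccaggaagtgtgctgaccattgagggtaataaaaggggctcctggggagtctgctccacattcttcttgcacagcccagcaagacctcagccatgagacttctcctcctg
Ncr1 promoter: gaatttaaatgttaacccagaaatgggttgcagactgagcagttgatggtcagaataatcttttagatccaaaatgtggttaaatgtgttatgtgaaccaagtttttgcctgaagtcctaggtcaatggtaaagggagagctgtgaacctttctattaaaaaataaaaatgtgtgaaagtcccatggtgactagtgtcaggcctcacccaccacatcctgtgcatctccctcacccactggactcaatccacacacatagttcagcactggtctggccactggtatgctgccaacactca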

How the data were processed

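Per the file headers, the deposited scanner files hold linear intensity values of Agilent 1-colour arrays of 62976 spots. Scans were quantified in Feature Extraction 10.5.1.1, whose processed signal already has the array's background removed. The deposited table of the authors' processed values lies on a log2 scale by comparison with those intensities, and it served as an alternative because how it was scaled is not stated in the labels or headers.

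Control spots (3671) and outlier spots were removed. Saturation was not seen. The log2 of the processed signal minus the array's 75th percentile was taken, and a probe was kept if it exceeded background clearly on 3 or more of 30 arrays (25210 genes, the brightest probe each). A model with 12 groups was fitted with limma 3.58.1 in R 4.3.3 (18 residual and 3.97 prior degrees of freedom). Tests were two-sided with Benjamini-Hochberg adjustment over all genes. The single serum array at 4 h was assumed to vary like the other groups. The number of arrays limits the precision. The p-values rest on the spread between arrays of the same group, in which mouse, slide and array quality are not separated.

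Where a gene was below background throughout a group, its level there is a bound and the fold is given as "at least". For each dim array the bound is the lowest signal of any probe well above background, or the gene's own signal if that is higher, and the bright group's mean is set against the mean of these bounds. The fold so bounded is that of the group means and takes no account of the spread between arrays. Replicate numbers only name arrays: deviations of same-numbered pairs correlated at -0.54 to 0.42 (median -0.03, 12 pairs).

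The named genes are the 10 members, with array values for those with the smallest p in a contrast, the called genes of the wider lists, and the 10 genes most alike over the arrays. Members and lists were chosen with earlier results of these data known. Exon and UTR positions of the probes were not analysed here. The fit was tested on simulated data.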

Additional observations from a re-analysis of the deposited data

Results flagged for a closer look

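Xcl1 moved in opposite ways on the next day. The difference between OA and serum mice was -0.68 at 18 h, where all 3 OA arrays were below both serum arrays, and 1.54 at 24 h, where all 3 OA arrays were above both serum arrays. The change of the difference between the times was not tested. The 18 h difference did not pass the test, and the 24 h difference without serum 24 h replicate 1 was 0.90.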

How the results depend on the processing

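No member was called at 1, 1.5, 3, 4 or 18 h, over the mean of 6 times or in the course comparisons under any alternative run. At 24 h, 5 of 10 were called with normexp background correction, beside 10795 of all genes, against 7929 in the main fit. The count was 0 with scaling to the always detected probes, slide as a block, the intergenic signal as a covariate, only the groups compared, or without the 3 arrays apart. Leaving out 1 array gave 0 to 2 where both serum arrays at 24 h were kept. Without OA 4 h replicate 2, which gave 2, 8765 of all genes were called. The median at 24 h was 0.39 with scaling to the always detected probes, 0.45 with quantile normalization, 0.36 with the authors' deposited values, -0.30 with the covariate and 0.35 without the 3 arrays, and 0.35 to 1.77 leaving out 1 array. The median at 4 h turned to 0.36 with scaling to the always detected probes and 0.52 with the covariate. The test over 12 groups called 1 member with that scaling, quantile normalization or the deposited values. Over all genes it called 309, 426 and 803 in these settings, against 82 in the main fit. It called 2 members with a trended, robust variance, where the count over all genes is not given here, and 0 to 2 leaving out 1 array. All genes' median at 24 h was -0.56 with that scaling.

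At 24 h, signs turned for Ncr1 (-0.51 with that scaling, -0.23 quantile, -0.20 deposited, -0.026 slide block, -0.36 covariate, -0.12 without the 3 arrays, -0.16 to 0.39 leaving out 1), Prf1 (-0.19 with that scaling, -0.24 quantile, -0.33 deposited, -0.57 covariate, -0.16 without the 3 arrays, -0.16 to 0.98 leaving out 1), Nkg7 (-0.0098 with that scaling, -0.31 covariate, -0.25 without the 3 arrays, -0.25 to 1.45 leaving out 1) and Eomes (-0.034 with that scaling, -0.30 covariate). With the covariate, Klrb1c was -0.38, Klrd1 -0.11, Klrk1 -0.21, Gzma -0.32 and Gzmb -0.20. Klrk1 was -0.051 with normexp. The cause was not tested. The replicate block left 1 member called at 24 h (median 0.98, Xcl1 adjusted p = 0.0443 by limma) and changed no other call. Groups of 1 to 3 arrays, and dim signals of Klrk1 and Xcl1, limit what these arrays can show.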
